A study of Mus musculus with 2 samples.

Results

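C1q-high mature macrophages were cells of mouse bone marrow macrophage cultures that held much RNA of the 3 C1q genes, C1qa, C1qb and C1qc. A cell was taken when its summed C1qa, C1qb and C1qc reached 10 unique molecular identifiers (UMIs, counted RNA molecules) per 10000 UMIs. It also had to hold fewer than 3 UMIs of Vsig4 plus Cd209f, less than 1.5 UMIs of Atp6v0d2 per 10000 and less than 10 of Rsad2, Ifit1, Ifit2 and Ifit3 per 10000. Of 23101 cells that passed the cell filter, 2603 met this rule. They made up 1670 of 12123 cells (13.8%, 95% binomial interval 13.2 to 14.4) in the library treated with Tamm-Horsfall protein and 933 of 10978 (8.50%, 7.98 to 9.04) in the vehicle library. The rule used the measured RNA of the same cells, so these shares and the C1q levels are descriptions and were not tested.

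The study compared wild type 129Sv bone marrow macrophages that received 1 µg/ml of a truncated, non-polymerizing form of Tamm-Horsfall protein (THP, or uromodulin, a protein secreted by the kidney tubule) with macrophages that received its vehicle, 5% dextrose. Both cultures had been grown with M-CSF, on which marrow cells become macrophages, were treated on day 7 and were harvested after 18 hours. RNA was captured from single cells in Chromium droplets, 1 library per treatment. The sources used here give neither the age and number of the mice nor whether marrow was pooled. With 1 library each there is no replicate check and no p-value: treatment, dish and library preparation cannot be told apart, and all intervals cover counting error only.

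C1q is the recognition part of the first complement complex. Its A, B and C chains are made by tissue macrophages rather than by the liver, assemble into a bouquet-shaped protein and bind immune complexes, dying cells and some microbes. Macrophages with much C1q RNA are commonly resident or mature cells that clear apoptotic cells, recycle iron and carry receptors such as Mrc1 (the mannose receptor) and Adgre1 (F4/80). Tamm-Horsfall protein, the most abundant protein of normal urine, is also found in the circulation.

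The 3 C1q genes lie side by side on the minus strand of mouse chromosome 4 (GRCm38), C1qb at chr4:136880129-136886187, C1qc at chr4:136889804-136893065 and C1qa at chr4:136895917-136898803. The windows from 250 bases before to 50 bases after the RefSeq start sites of C1qb (chr4:136886151-136886450) and C1qc (chr4:136892865-136893164) are shown because these genes define the cells. Capitals mark GAGGAA, a core that the macrophage factor PU.1 can bind, on either strand.
C1qb: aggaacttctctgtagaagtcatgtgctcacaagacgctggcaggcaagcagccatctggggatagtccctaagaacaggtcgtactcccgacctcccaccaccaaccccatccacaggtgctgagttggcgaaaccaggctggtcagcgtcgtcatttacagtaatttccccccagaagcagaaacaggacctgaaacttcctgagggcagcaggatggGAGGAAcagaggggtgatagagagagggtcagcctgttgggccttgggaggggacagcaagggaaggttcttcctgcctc
C1qc: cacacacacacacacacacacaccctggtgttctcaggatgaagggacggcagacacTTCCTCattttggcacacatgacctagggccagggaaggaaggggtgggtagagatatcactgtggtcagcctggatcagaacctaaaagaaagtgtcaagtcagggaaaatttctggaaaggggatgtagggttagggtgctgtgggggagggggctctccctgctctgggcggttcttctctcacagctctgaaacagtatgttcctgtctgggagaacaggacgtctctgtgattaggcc
The match began at position -30 of C1qb and at position -193 of C1qc, counted from the start site. GAGGAA was common: 28.3% of all 32851 listed promoters held it, and 31% of the promoters of genes tested here.

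The C1q genes were found together in nearly every member, which the minimum on their sum makes likely. All 3 had a UMI in 91.8% of the C1q-high cells of the THP library and in 94.0% of those of the vehicle library. The same was true of 0.135% of the neutrophil-like cells of the THP library (S100a8 and S100a9 high, no Adgre1, Csf1r or Mrc1) and of 0 of 2302 in the vehicle library, at median depths of 4641 and 4896 UMIs against 20334 and 21622 in C1q-high cells. Of the C1q-low macrophages defined below, with median depths of 18911 and 20847 UMIs, 20.1% in THP and 14.9% in vehicle also held all 3. Summed C1q had a median of 19.99 per 10000 UMIs in the THP cells, with a highest value of 130.5, and a median of 20.97 in the vehicle cells, with a highest value of 109.9. The levels were spread without a gap. In the THP library 836 members lay between 10 and 20 per 10000, 582 between 20 and 40 and 252 at 40 or more, against 437, 324 and 172 in the vehicle library.

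**Figure D1:**
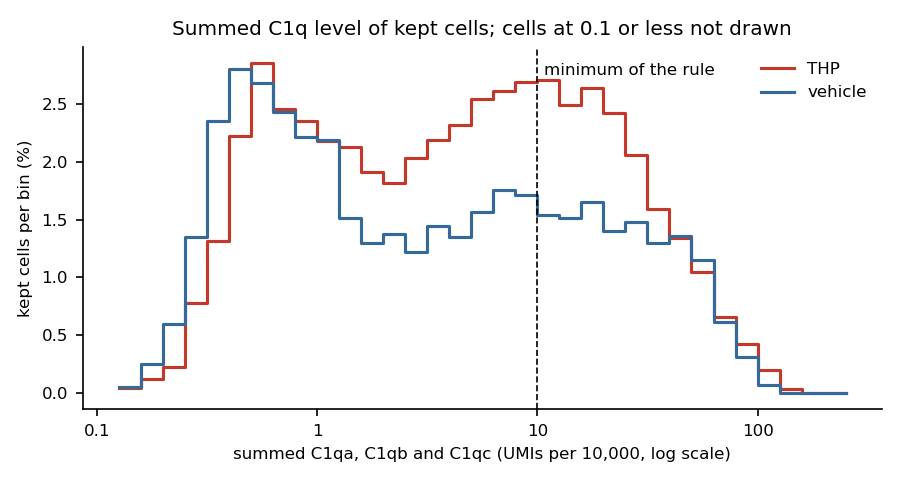
Share of kept cells (y axis, percent per bin) by summed C1qa, C1qb and C1qc level (x axis, UMIs per 10000, log scale), with THP in red, vehicle in blue and the minimum of the rule as a dashed line. The distribution runs on across the minimum of 10 in both libraries, the THP curve lies above the vehicle curve around it, and the curves meet near 40.

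The minimum therefore divides a continuum. Just below it, at 9 to 10 per 10000, lay 119 THP cells and 61 vehicle cells, and just above it, at 10 to 11, lay 132 and 61. Mrc1 was at 202 counts per 1000000 UMIs (CPM) just below and 197 CPM just above the minimum in the THP library, and at 406 and 470 CPM in the vehicle library. Cd74, the invariant chain of MHC class II, was at 414 CPM just below and 523 CPM just above in the THP library, and at 758 and 683 CPM in the vehicle library.

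The macrophage part of the label was borne out by marker genes that the rule did not use. Adgre1 had a UMI in 98.0% of THP and 97.7% of vehicle C1q-high cells, Csf1r (the M-CSF receptor) in 96.3% and 96.8%, and Mrc1 in 86.0% and 92.2%. C1q-low macrophages, defined below with Adgre1 required, held Csf1r in 90.3% of THP and 89.2% of vehicle cells, and Mrc1 in 53.8% and 46.9%. Finding Adgre1 or Csf1r thus did not set C1q-high cells apart from other macrophages. None of these 3 genes can serve as a check in the neutrophil-like class, which was defined by their absence. Adgre1 was at 540 CPM (95% Poisson interval 533 to 547) in the THP cells and 445 CPM (436 to 454) in the vehicle cells. Mrc1 went the other way, at 273 CPM (268 to 278) and 499 CPM (490 to 508), a log2 ratio of -0.87 that stayed short of 2-fold. All log2 ratios given here are those of CPM + 1, THP over vehicle. For named genes between 10 and 100 CPM the upper bound of the counting interval lay at most 13.6% above the value, and from 100 CPM at most 4.11%.

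Cell cycle RNA was present in C1q-high cells, the label mature notwithstanding. After each cell was thinned to 5000 UMIs, the 24 genes of a G2 and mitosis list gave a median of 11 UMIs per C1q-high cell in either library, and 31.7% of THP and 38.3% of vehicle cells held 20 or more, against 34.8% and 41.9% of C1q-low macrophages. Mki67, a marker of proliferating cells, was at 240 CPM in the THP and 466 CPM in the vehicle C1q-high cells. Genes of monocytes and neutrophils were low in C1q-high cells beside the C1q-low macrophages of the same library (summed C1q under 10 and at least 1 UMI of Adgre1 per 10000, 5035 THP and 3818 vehicle cells). Ly6c2, a monocyte surface protein, was at 67.6 CPM in C1q-high against 256 CPM in C1q-low THP cells, and at 87.0 against 351 CPM in vehicle cells.

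The THP C1q-high cells gave a total of 40320887 UMIs and the vehicle ones 23013213, and median detected genes were 4257 and 4724. Ribosomal protein genes took a median of 19.0% of UMIs in THP and 17.1% in vehicle cells, and mitochondrial genes 3.15% and 3.63%. The 10 neutrophil markers summed to 3049 CPM in THP and 2679 CPM in vehicle C1q-high cells, against 249894 and 218337 CPM in neutrophil-like cells. T or NK cell markers summed to 2.01 and 3.43 CPM with Gzma at 0, erythroid markers to 0.794 and 0.217 CPM, and mast cell markers to 1.31 and 4.21 CPM with Tpsb2 at 0. The 7 B cell markers, all detected, summed to 144 and 139 CPM, with a highest level per cell of 1007 and 542 per 10000 UMIs, and the immunoglobulin genes Igkc (269 and 106 CPM) and Jchain (18.8 and 5.30 CPM) were among the genes higher in THP. Myeloid progenitor markers summed to 375 and 355 CPM. The 7 stromal markers, all detected, summed to 26.2 CPM in THP and 90.1 CPM in vehicle cells, with a highest level per cell of 75.6 and 83.0 per 10000 UMIs, and 3.05% of THP against 8.57% of vehicle cells held more than 0.102 per 10000. The 2 libraries shared 42 barcodes, of which 38 passed the cell filter in both and 0 were C1q-high in both.

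The main difference between the treated and untreated C1q-high cells was a set of inflammatory genes that were far higher in the THP library. Cytokines and chemokines that recruit neutrophils and monocytes and genes of the response to bacterial products stood at the top of the ranking. Feedback inhibitors of NF-kB were called higher further down. The iron exporter Slc40a1, the scavenger receptor Cd163, the Toll-like receptor gene Tlr8 and histone genes were among the lowest. Of 7931 genes with at least 10 CPM in 1 library or both, 83 (1.05%) were at least 2-fold higher in the THP cells and 248 (3.13%) at least 2-fold lower. In all 3 bands of summed C1q, 83 of the higher genes were also higher, and 244 of the lower genes also lower. The whole distribution leaned down, with a median log2 ratio of -0.18 and a central 95% from -1.05 to 0.56.

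That lean depended on the scaling and went with transcript length. After scaling by trimmed mean of M values (TMM), which raised every log2 ratio by 0.26, 127 genes were higher and 85 lower, so that the higher genes were 59.9% of the called genes in place of 25.1%. All 83 higher genes stayed called under TMM, as adding to every ratio must leave them, and 85 of the 248 lower ones did. After a correction for transcript length 75 higher and 108 lower genes stayed called, and with cells thinned to 5000 UMIs 73 and 192 did. Across the 7927 genes with a known length, the log2 ratio correlated with transcript length at a Spearman rho of -0.56, as a description across genes of 2 libraries. The fifth of genes with the shortest transcripts had a median log2 ratio of 0.12 and the fifth with the longest -0.50. A pair of RNAs that are not protein-coding messages moved the same way: Gm42418, which overlaps a ribosomal RNA repeat, was at 1007 CPM in THP and 2607 CPM in vehicle C1q-high cells, and the nuclear RNA Malat1 at 3363 and 5325 CPM. The part of length and of these RNAs in the lower calls was not tested beyond a correction for length, after which 132 genes were lower.

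Among inflammatory cytokines and chemokines, 10 of the 14 genes that reached 10 CPM were called higher and 0 lower, with a median log2 ratio of 1.96 beside the -0.18 of all genes tested. Without cells rich in genes of other cell types the median was 2.17. Il1b (chr2:129364570-129371139), the secreted fever cytokine interleukin-1 beta, was at 70.1 CPM (67.6 to 72.8) in the THP cells and 3.39 CPM (2.68 to 4.23) in the vehicle cells, a log2 ratio of 4.02. In the vehicle library 70.5% of its UMIs lay in 10 cells, against 15.6% in the THP library. Thinned to 5000 UMIs, 16.0% of THP and 1.22% of vehicle C1q-high cells had an Il1b UMI, against 4.42% and 0.97% of neutrophil-like cells. Only 701 of 1483 THP and 1134 of 2302 vehicle neutrophil-like cells were deep enough. Thinned values of that class, here and below, thus cover its deeper cells only. Tnf, an early macrophage cytokine, was at 148 CPM (145 to 152) and 25.2 CPM (23.2 to 27.3), a log2 ratio of 2.51. Tnf therefore differed across the class and not in a few cells: thinned to 5000 UMIs, 42.5% of THP and 11% of vehicle C1q-high cells had a Tnf UMI, against 14.7% and 4.85% of neutrophil-like cells.

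The chemokines of this list fell into 2 kinds. Those that attract neutrophils included Cxcl1, at 73.1 CPM in THP and 7.60 CPM in vehicle C1q-high cells, Cxcl2, at 721 and 159 CPM, and Cxcl3, at 15.6 and 3.95 CPM. Those that attract monocytes and T cells included Ccl3, at 181 and 19.7 CPM, Ccl4, at 316 and 38.7 CPM, and Cxcl10, at 42.8 and 7.08 CPM. Log2 ratios of these 6 genes ran from 1.75 for Cxcl3 to 3.14 for Ccl3. Ccl7 and Ccl12, ligands of the monocyte receptor Ccr2, followed at log2 ratios of 1.54 and 1.53, while the related Ccl2 was at 1249 and 738 CPM and did not reach 2-fold. Il18 and Il1rn, the IL-1 receptor antagonist, had log2 ratios of -0.16 and 0.52 and were not called.

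The promoters of Cxcl1, Cxcl2, Cxcl3 and Cxcl10 are shown because these chemokine genes, all on chromosome 5, were called higher together. Of the higher genes whose windows were looked at singly, only these 4 held the letters marked below. Each window reaches from 250 bases before to 50 bases after the RefSeq start site (GRCm38): Cxcl1 at chr5:90890995-90891294, Cxcl2 at chr5:90903649-90903948 and Cxcl3 at chr5:90785851-90786150 on the plus strand, and Cxcl10 at chr5:92348840-92349139 on the minus strand. Capitals mark GGGA and TTCC with any 2 bases between them, a spelling of the NF-kB site, or its reverse complement (GGAA and TCCC with 2 bases between), with the overlapping matches of both strands joined.
Cxcl1: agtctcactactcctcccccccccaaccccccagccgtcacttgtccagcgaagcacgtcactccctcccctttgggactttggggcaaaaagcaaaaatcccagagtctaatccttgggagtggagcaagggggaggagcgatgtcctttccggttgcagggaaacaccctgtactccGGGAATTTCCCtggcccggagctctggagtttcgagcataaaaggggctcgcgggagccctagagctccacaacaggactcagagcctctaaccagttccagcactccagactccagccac
Cxcl2: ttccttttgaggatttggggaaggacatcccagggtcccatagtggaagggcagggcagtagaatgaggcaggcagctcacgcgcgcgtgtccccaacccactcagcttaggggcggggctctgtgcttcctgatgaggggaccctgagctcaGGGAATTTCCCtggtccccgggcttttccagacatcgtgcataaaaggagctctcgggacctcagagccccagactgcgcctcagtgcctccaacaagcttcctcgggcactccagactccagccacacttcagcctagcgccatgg
Cxcl3: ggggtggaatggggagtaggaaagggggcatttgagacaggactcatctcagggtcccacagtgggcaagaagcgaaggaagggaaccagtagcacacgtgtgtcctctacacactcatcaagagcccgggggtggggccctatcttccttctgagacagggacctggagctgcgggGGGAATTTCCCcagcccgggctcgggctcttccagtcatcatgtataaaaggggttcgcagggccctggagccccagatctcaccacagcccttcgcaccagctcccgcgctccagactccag
Cxcl10: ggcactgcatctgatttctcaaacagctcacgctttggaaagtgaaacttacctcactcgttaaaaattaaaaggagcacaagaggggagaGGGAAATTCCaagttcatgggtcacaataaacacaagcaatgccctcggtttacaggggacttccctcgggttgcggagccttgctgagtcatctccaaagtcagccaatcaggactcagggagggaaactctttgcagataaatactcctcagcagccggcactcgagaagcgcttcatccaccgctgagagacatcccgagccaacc
The matches began at positions -71 and -70 of Cxcl1, -97 and -96 of Cxcl2, -73 and -72 of Cxcl3, and -159 of Cxcl10, counted from the start site. Of all 32851 listed promoters 1.47% held this spelling, and so did 113 of the 6349 tested genes with a listed promoter (1.78%). Among the genes called higher with a listed promoter it was found in 6 of 67 (8.96%), the 4 chemokines and Nfkb2 and Nfkbia, and among those called lower in 3 of 177 (1.69%). The spelling was chosen after a looser one, GGG and CC with any 5 bases between, had been found in 72.6% of the tested genes and in 67.2% of the higher ones, so the count is a description. No match in a window, as for Tnf, Il1b, Acod1, Saa3, Ccl3, Traf1, Gpr84, Socs3, Bcl2a1a and Upp1, says only that these letters are not in it.

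**Figure D2:**
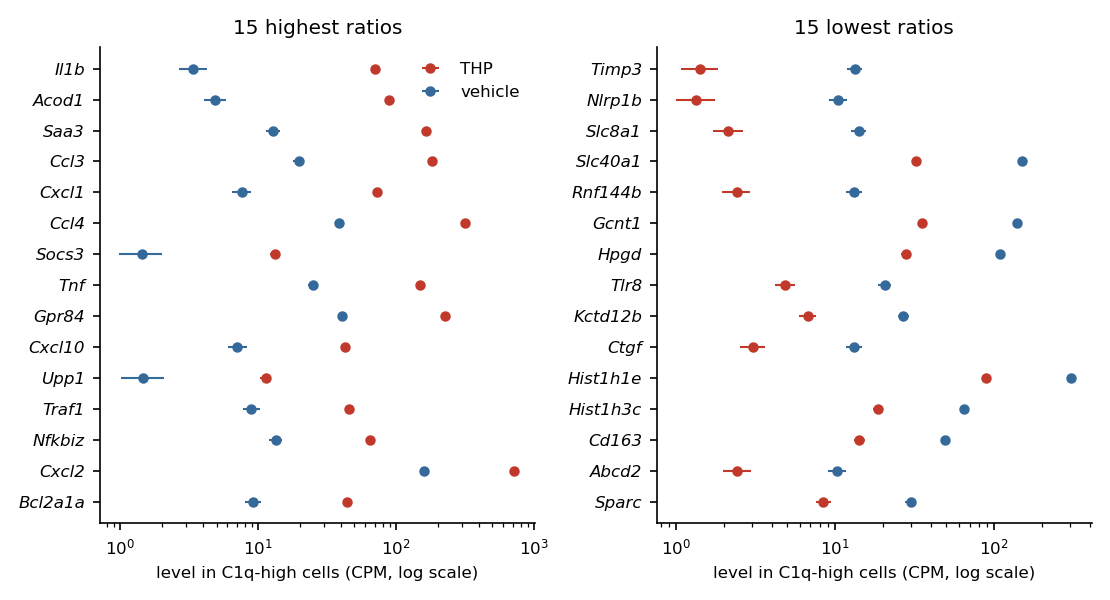
Level in C1q-high cells (x axis, CPM, log scale) of the 15 genes with the highest and the 15 with the lowest log2 ratio among called genes of the same direction in all 3 bands of C1q, with THP in red, vehicle in blue and 95% Poisson intervals as bars. Il1b (70.1 against 3.39 CPM) heads the left panel and Timp3 (1.41 against 13.3 CPM) the right one, and no pair of intervals overlaps.

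Seen cell by cell, the inflammatory list was high in most treated C1q-high cells. Thinned to 5000 UMIs, the 1598 THP cells deep enough held a median of 12 UMIs of the list, with a 10th percentile of 3, a 90th of 36.3 and a highest count of 171. The 900 vehicle cells held a median of 4, with a 10th percentile of 0, a 90th of 16 and a highest count of 98. The 2 distributions overlapped but were shifted, and 58.8% of THP against 23.2% of vehicle cells held 10 or more UMIs. Within the THP cells the medians by band of C1q were 12, 13 and 10, from the lowest to the highest band, and within the vehicle cells 5, 4 and 2. Neutrophil-like cells, thinned in the same way, had medians of 1 and 0. C1q-low macrophages had medians of 9 in THP and 3 in vehicle, and 48.7% and 17.7% of them held 10 or more UMIs. The shift was thus not particular to C1q-high cells. For the thinning, 72 THP and 33 vehicle C1q-high cells were too shallow. So were 367 THP and 278 vehicle C1q-low macrophages, and 782 THP and 1168 vehicle neutrophil-like cells.

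**Figure D3:**
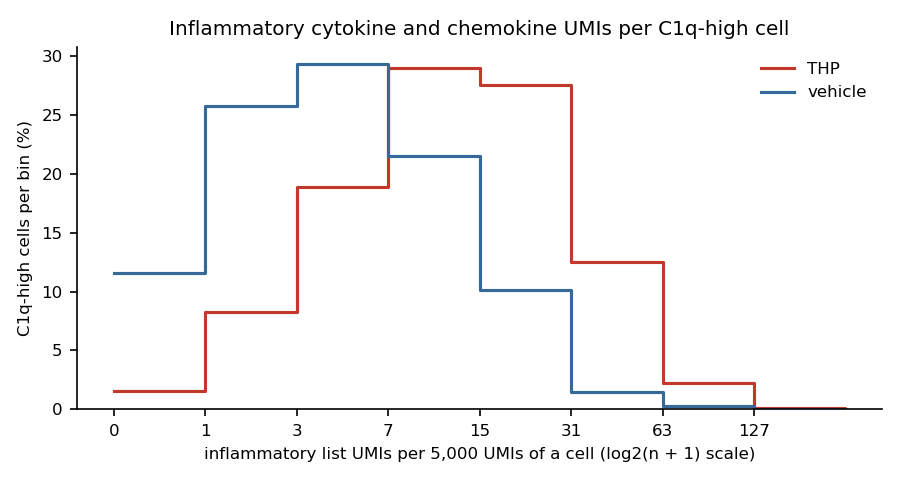
Share of C1q-high cells (y axis, percent per bin) by UMIs of the inflammatory cytokine and chemokine list in a cell thinned to 5000 UMIs (x axis, log2 scale of the count plus 1), with THP in red and vehicle in blue. The THP cells have a median of 12 and the vehicle cells a median of 4, and their ranges overlap.

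The NF-kB pathway and its feedback genes were higher in the THP cells as well. All 23 genes that reached 10 CPM had a positive log2 ratio, 16 were called higher and 0 lower, and the median was 1.17. Nfkbia, the inhibitor that holds NF-kB in the cytoplasm, was at 317 CPM in THP and 105 CPM in vehicle C1q-high cells, a log2 ratio of 1.58. Nfkbiz, a nuclear co-regulator, was at 65.0 and 13.4 CPM, a log2 ratio of 2.19. Traf1, a signalling adaptor, was at 45.6 and 8.95 CPM, and Icam1, the ligand of leukocyte integrins, at 136 and 38.8 CPM. The genes of the subunits themselves differed less: Nfkb2 and Relb had log2 ratios of 1.38 and 1.17, Nfkb1 0.60, Rela 0.32 and Rel 0.16. Sod2, the mitochondrial superoxide dismutase, was at 588 and 200 CPM, while Sod1 was at 193 and 232 CPM. The survival genes Bcl2a1a, Bcl2a1b and Bcl2a1d had log2 ratios of 2.14, 1.87 and 1.89, but they are near-identical copies whose reads could have been split.

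The lipopolysaccharide response and innate sensing list went both ways. Of 20 genes at 10 CPM, 8 were called higher and 3 lower, with a median log2 ratio of 0.70. Acod1 (chr14:103046977-103056573), which makes the antibacterial metabolite itaconate, was at 89.6 CPM in THP and 4.91 CPM in vehicle C1q-high cells, a log2 ratio of 3.94. Gpr84, a receptor for medium-chain fatty acids, was at 226 and 40.5 CPM, a log2 ratio of 2.45. Saa3 (chr7:46711998-46715700), an acute phase protein, was at 164 and 12.9 CPM, a log2 ratio of 3.57. Saa3 was unevenly spread, with 24.0% of its THP UMIs in 10 cells. After thinning its share of THP C1q-high cells (17.8%) was not above that of the neutrophil-like cells deep enough for thinning (21.8%). Lcn2, an iron-binding defence protein, was at 142 and 153 CPM.

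The receptor genes of the same list had ratios of either sign. Cd14, the co-receptor that hands lipopolysaccharide to Tlr4, was at 1055 CPM in THP and 403 CPM in vehicle C1q-high cells, and Tlr2, a receptor of bacterial lipopeptides, at 113 and 47.4 CPM. Tlr4 itself was at 13.6 CPM (12.5 to 14.8) and 38.2 CPM (35.7 to 40.9), a log2 ratio of -1.43. The receptor genes for RNA in endosomes were also lower or tended that way, with Tlr8 at 4.84 and 20.5 CPM, Tlr13, close to the limit of the call, at 41.5 and 87.5 CPM (log2 ratio -1.06) and Tlr7, not called, at 23.8 and 43.9 CPM. Ly96 and Myd88, the partner and the adaptor of Tlr4, had log2 ratios of 0.26 and 0.36. Thus Cd14 and Tlr2 were called higher while Tlr4, Tlr8 and Tlr13 were called lower in the same cells. Under TMM scaling the list had 9 genes called higher and 2 lower.

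Single genes of iron export and haemoglobin uptake were among the lowest in the THP cells. Slc40a1 (ferroportin, chr1:45908068-45926523), the only known iron exporter of mammalian cells, was at 32.2 CPM (30.5 to 34.0) in THP and 149 CPM (144 to 154) in vehicle C1q-high cells, a log2 ratio of -2.17 that ranged from -2.34 to -1.91 over 11 other settings. Cd163 (chr6:124304656-124330527), the receptor for haemoglobin bound to haptoglobin, was at 14.2 CPM (13 to 15.4) and 49.1 CPM (46.3 to 52.1). Slc11a2, an iron importer, and Cp, the ferroxidase ceruloplasmin, went the other way, at 52.1 against 24.5 CPM and 11.4 against 3.39 CPM, though Slc11a2 missed the call in 3 of 11 other settings. Tfrc, the transferrin receptor, was at 114 and 171 CPM and Hmox1, which breaks down haem, at 247 and 262 CPM, neither of them called. Of 13 iron genes at 10 CPM, 2 were called higher and 1 lower, so the list as a whole had no common direction (median log2 ratio -0.08, or 0.18 under TMM).

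Other genes at the bottom of the ranking had diverse functions. Hpgd (chr8:56294585-56321043), which inactivates prostaglandins, was at 27.7 CPM in THP and 109 CPM in vehicle C1q-high cells, a log2 ratio of -1.94. Gcnt1 (chr19:17326141-17372844), an enzyme that branches O-linked sugars, was at 35.1 and 138 CPM, a log2 ratio of -1.95. Plau, the urokinase that activates plasminogen, was at 47.6 and 145 CPM, while its receptor gene Plaur was at 94.0 and 56.6 CPM. Nlrp1b, an inflammasome sensor, was at 1.34 and 10.4 CPM, and Slc8a1, a sodium-calcium exchanger, at 2.13 and 14.0 CPM. Ccr1, a receptor of Ccl3, was at 18.9 and 53.9 CPM and Ccr2, the receptor of Ccl2, Ccl7 and Ccl12, at 50.9 and 103 CPM. The Ccr2 ratio stood at the limit of the call (log2 ratio -1.0) and missed it in 9 of 11 other settings, down to -0.63 with thinned cells.

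Genes of matrix and mesenchymal cells among the lowest rested on a handful of cells. Timp3, Ctgf and Sparc had UMIs in 10, 13 and 16 THP cells and in 14, 13 and 30 vehicle cells, and at least 97.1% of their UMIs lay in 10 cells of a library. With cells high in markers of other cell types left out, the log2 ratio of Timp3 went from -2.56 to -0.28 and that of Ctgf from -1.82 to -0.12. Sparc is itself a stromal marker by which cells were left out, so its 0 UMIs in either library followed from that filter. Because so few cells held them, these 3 genes say nothing of the class at large. The collagen genes Col1a1, at 3.87 CPM in THP and 24.5 CPM in vehicle cells, and Col1a2, at 9.15 and 34.1 CPM, were called lower too and were kept out of the 15 lowest because their direction differed between bands of C1q. The histone genes were different: 10 of the 16 tested were called lower and 0 higher, with a median log2 ratio of -1.34. Hist1h1e, a linker histone, was at 88.4 CPM in THP and 302 CPM in vehicle cells, with 6.09% and 8.59% of its UMIs in 10 cells. The near-identical core histone genes could have shared reads.

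The mature macrophage identity list was mixed and moved with the scaling. Its 24 genes had a median log2 ratio of -0.09 that became 0.18 under TMM, and 0 were called higher, or 1 (Cebpb) under TMM. Mertk, a receptor for dying cells, was called lower at 17.4 CPM in THP and 42.3 CPM in vehicle C1q-high cells, a log2 ratio of -1.23 that missed the call under TMM (-0.98). The transcription factor Maf, a known driver of C1q genes, was at 403 and 721 CPM. Spi1, which encodes PU.1, was at 558 and 357 CPM and Cebpb at 401 and 204 CPM, so the macrophage factors of the list did not share a direction. Csf1r (309 and 346 CPM), Cd68 (469 and 463 CPM), Apoe (390 and 373 CPM) and Trem2 (494 and 528 CPM) differed by less than 1.2-fold.

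Efferocytosis receptors and bridging proteins, the genes for taking up dying cells, leaned lower in the THP cells under all scalings tried. Of 12 genes at 10 CPM, 11 had a negative log2 ratio, as had 5341 of the 7931 genes tested, but 1 was called (Mertk), and the median was -0.74, or -0.48 under TMM and -0.46 after the length correction. Axl was at 67.1 CPM in THP and 113 CPM in vehicle C1q-high cells, its bridging ligands Gas6 at 49.9 and 86.2 CPM and Pros1 at 13.1 and 22.9 CPM. The integrin chains Itgav and Itgb5, which bind Mfge8 on dying cells, were at 31 and 52 CPM and at 47.6 and 81.2 CPM. Stab1 and Anxa1 stood apart with log2 ratios of -0.05 and 0.07. Among scavenger receptors, 0 of 11 were called higher and 1 lower (Cd163), Msr1 had a log2 ratio of -0.19 and Marco of 0.09. MHC class II genes were all lower without a call, with a median log2 ratio of -0.55 over 6 genes and H2-Eb1 at 61.5 and 108 CPM.

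Of 12 complement genes at 10 CPM other than the C1q genes, 0 were called higher, and their median log2 ratio was -0.09, or 0.17 under TMM. The anaphylatoxin receptors C3ar1 and C5ar1 were at 384 CPM in THP and 278 CPM in vehicle C1q-high cells and at 297 and 219 CPM, short of 2-fold. C3, the central component, was at 41.8 and 32.9 CPM and Cfp, which stabilises the C3 convertase, at 638 and 575 CPM. The C1q genes, which the rule holds near a level, were at 765 and 875 CPM for C1qa, 974 and 941 CPM for C1qb and 569 and 641 CPM for C1qc.

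**Figure D4:**
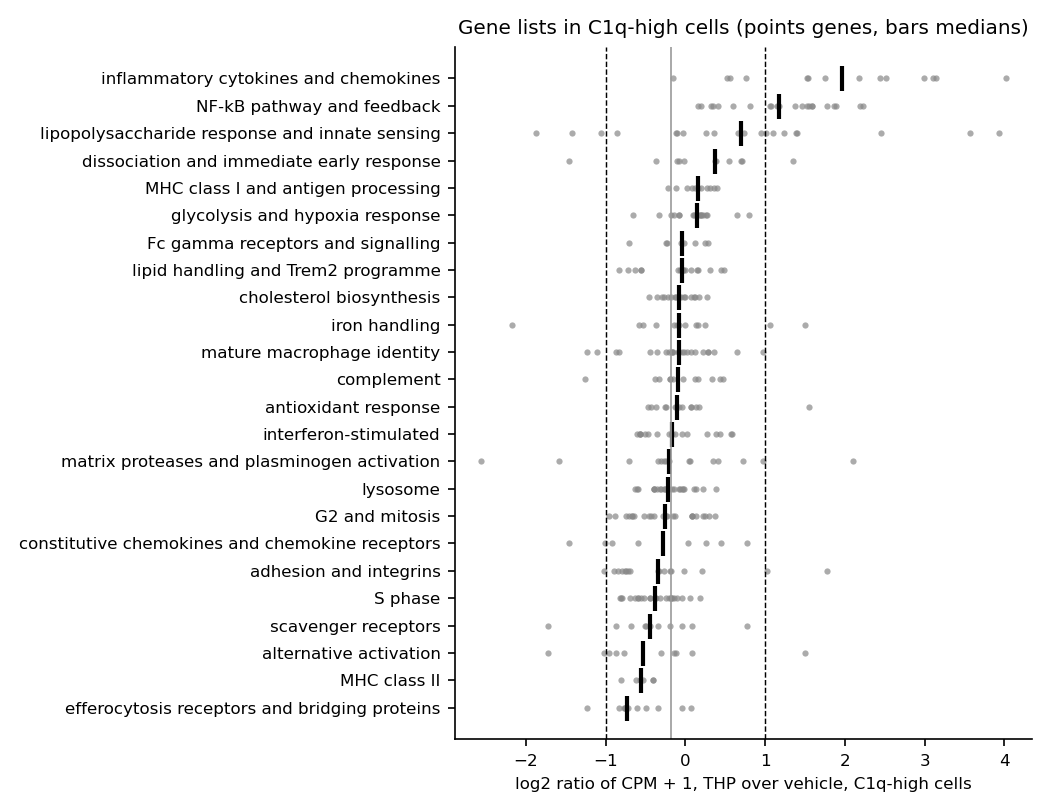
Log2 ratio of CPM + 1, THP over vehicle, in C1q-high cells (x axis) for the genes at 10 CPM or more of 24 lists (y axis), with points for genes, thick bars for list medians, dashed lines at 2-fold and a grey line at the median of all genes tested (-0.18). The inflammatory (1.96) and NF-kB (1.17) medians lie at the top, beyond 2-fold, and the efferocytosis median (-0.74) lies at the bottom.

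Several programmes of mature macrophages showed no called gene in either direction. This held for the 17 interferon-stimulated genes left after those of the rule (median log2 ratio -0.17, 0.08 under TMM), the 8 Fc gamma receptor genes (-0.04, 0.22 under TMM), the 18 genes of lipid handling and Trem2 (-0.04, 0.22 under TMM), the 17 of cholesterol biosynthesis (-0.08, 0.18 under TMM) and the 24 of the lysosome (-0.22, 0.04 under TMM). The sign of these medians thus followed the scaling. Within the lipid list the cholesterol exporters Abca1 and Abcg1 were at 49.8 against 82.9 CPM and 26 against 47.2 CPM, while Fabp5 was at 710 and 509 CPM. Cells were taken with few interferon gene UMIs, so the interferon list covers C1q-high cells without a strong interferon response only.

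For glycolysis 0 of 18 genes were called (median 0.14), with Slc2a1, the glucose transporter GLUT1, at 43.3 and 24.4 CPM and Hk1 at 28.4 and 45.6 CPM. No gene of the S phase list or of the G2 and mitosis list was called. Genes outside these lists were called lower, among them E2f2, Dtl and the histone genes given above. The median was -0.38 over 25 S phase genes, 23 of them negative, or 15 under TMM. It was -0.26 over 24 genes of G2 and mitosis, 16 of them negative, or 12 under TMM (medians -0.12 and -0.0002), beside the negative ratios of 5341 of the 7931 genes tested. Per thinned cell the S phase list gave a median of 6 UMIs in THP and 8 in vehicle C1q-high cells. MHC class I genes had a median of 0.16, with B2m at 2072 and 1620 CPM, and -0.004 after the length correction.

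Some lists held single genes that were called. In alternative activation 1 of 10 genes was higher and 2 lower: Arg1 (arginase-1) was at 19.6 CPM in THP and 6.30 CPM in vehicle C1q-high cells, with 42.5% of its THP UMIs in 10 cells, and Cd163 and Klf4 were the lower genes. The Arg1 ratio was 0.65 with a C1q minimum of 5, in place of 1.49, and Klf4 missed the call in 6 of 11 other settings. In adhesion 2 of 17 were higher and 1 lower: Icam1 and Itga5 against Dab2, an endocytic adaptor of macrophages, at 635 and 1296 CPM (log2 ratio -1.03, or -0.76 under TMM). Itga5 missed the call in 3 of 11 other settings and Dab2 in 5. In matrix proteases 1 of 15 was higher and 2 lower, with Mmp14, a membrane-bound collagenase, at 38.2 and 8.13 CPM, set against Plau and Timp3, the latter resting on few cells as given above. In the antioxidant list 1 of 14 (Sod2) was higher and 0 lower. The 11 genes of the immediate early and dissociation list, which detaching cells can induce, had a median log2 ratio of 0.37, or 0.63 under TMM, with 6 positive and 5 negative. Ier3 was called higher at 119 and 46.4 CPM and Fosb lower at 5.18 and 16.0 CPM. Junb, Atf3 and Btg2 had log2 ratios of 0.71, 0.69 and 0.55, and Fos, Jun and Dusp1 of -0.11, -0.36 and -0.02. The part of handling in the inflammatory difference was not tested. Of 8 constitutive chemokines and receptors, 0 were higher and 2 lower, Ccr1 and Ccr2.

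Within each library, C1q-high cells carried a recognisable set of genes beside C1q. Against C1q-low macrophages, 31 of 7478 genes (0.415%) were at least 2-fold higher and 61 (0.816%) lower in the THP library, and 101 of 8018 (1.26%) higher and 119 (1.48%) lower in the vehicle library. Since the cells were divided by their own RNA, these values describe the class and were not tested. The genes with the highest ratios in both libraries were Kcnj10 (a potassium channel), Hpgd, Cd38 (an NAD-consuming enzyme), Ccr3, Spic, Cd163, Marco, Fcna, Slc40a1 and Cd55. Most C1q-high cells held no UMI of a given one of them. Detection ran from 12.2% (Cd163) to 36.2% (Marco) of THP cells and from 19.1% (Spic) to 50.7% (Slc40a1) of vehicle cells. Of the Marco UMIs, 16.6% in THP and 35.0% in vehicle lay in 10 cells. Spic is a transcription factor of red pulp macrophages that recycle iron, and Fcna (ficolin A) and Marco bind microbial surfaces. Slc40a1 was at 32.2 CPM in C1q-high and 5.61 CPM in C1q-low THP cells, and at 149 and 14.6 CPM in vehicle cells. The lowest ratios were those of Retnlg, Itga1, Hp, Ly6c2, Chil3, Fcnb, S100a9, S100a8, Plac8 and Chil1, most of them genes of neutrophils or monocytes. Chil3 was at 258 CPM in C1q-high and 875 CPM in C1q-low THP cells, and at 280 and 1158 CPM in vehicle cells.

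Other genes, 3 of them shared with the 10 just named (Kcnj10, Slc40a1 and Cd55), were graded by C1q level inside the class. The 10 genes that followed summed C1q most closely from cell to cell were Aif1, Vcam1, Axl, Trf, Ms4a7, Kcnj10, Ctsc, Slc40a1, Cd55 and Lgmn. Their Spearman rho lay between 0.23 and 0.34 over 1598 thinned THP cells and between 0.37 and 0.46 over 900 vehicle cells, against a central 95% of -0.11 to 0.12 of the mean over both libraries for 5081 genes. All cells of a library share that library, and both measures come from the same 5000 UMIs. Vcam1, an adhesion molecule of tissue macrophages, was at 16.0, 50.6 and 172 CPM in the THP bands of 10 to 20, 20 to 40 and 40 or more, and at 25.4, 92.3 and 271 CPM in the vehicle bands. Slc40a1 climbed from 12.6 over 37.8 to 119 CPM in THP and from 60.7 over 161 to 473 CPM in vehicle cells, so the vehicle level was above the THP level in each band. Between the band of 40 or more and that of 10 to 20, 167 of 7648 genes (2.18%) were at least 2-fold higher and 50 (0.654%) lower in the THP library, and 239 of 8148 (2.93%) higher and 138 (1.69%) lower in the vehicle library.

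**Figure D5:**
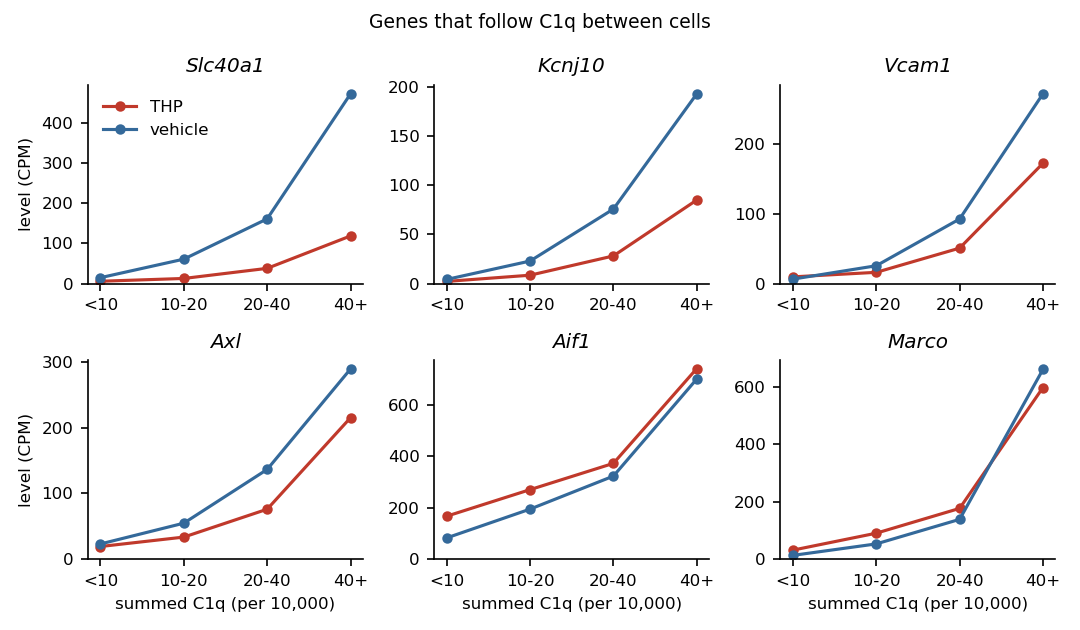
Level (y axis, CPM) of 6 genes in C1q-low macrophages (below 10) and in the 3 bands of summed C1q per 10000 UMIs (x axis), with THP in red and vehicle in blue. All 6 genes are highest in the band of 40 or more; Slc40a1 (119 against 473 CPM) and Kcnj10 are lower in THP in each band, and Aif1 is higher in THP in each of them.

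The genes that were higher in the class or followed its C1q level differed between the libraries to unlike degrees. Marco was at 173 CPM in THP and 163 CPM in vehicle C1q-high cells, Cd55, which protects cells from complement, at 63.8 and 58.9 CPM, Aif1 at 354 and 304 CPM and Ms4a7 at 236 and 265 CPM, log2 ratios between -0.17 and 0.22. Spic was at 21.9 and 14.1 CPM and was not called. Kcnj10, at 23.1 and 62.9 CPM, was called lower together with Slc40a1, Cd163 and Hpgd. Ccr3, Cd38 and Fcna were lower without a call, at log2 ratios of -0.95, -0.72 and -0.72. Of the 10 genes highest over C1q-low cells, 7 had a lower level in the THP cells, as had 5341 of the 7931 genes tested. At least 2-fold lower were 4 of them, against 3.13% of all genes tested, and 0 were called higher, against 1.05%. With vehicle cells weighted to the THP mix of C1q and depth, the log2 ratio of Slc40a1 was -2.06, that of Cd163 -1.55 and that of Hpgd -1.80.

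The count of called genes in other macrophages of the 2 libraries was close to that in C1q-high cells. In C1q-low macrophages 85 of 7860 genes (1.08%) were higher and 238 (3.03%) lower in THP, and in the 377 THP and 377 vehicle cells with C1q and Vsig4 or Cd209f 90 of 8119 (1.11%) were higher and 229 (2.82%) lower. The classes come from the same 2 libraries, so their values are only set side by side. The inflammatory median was 1.96 in C1q-high, 1.86 in C1q-low and 2.45 in Vsig4 cells, and the NF-kB median was 1.17, 1.26 and 1.12. Il1b had a log2 ratio of 4.02 in C1q-high and 2.96 in C1q-low cells, and Arg1 of 1.49 and 0.34. Slc40a1 had ratios of -2.17 and -1.23 and Cd163 of -1.72 and -0.53. In C1q-low cells Slc40a1 was at 5.61 CPM in THP and 14.6 CPM in vehicle, and Cd163 at 1.58 and 2.73 CPM. Cd163 thus lay below 10 CPM there, where the added 1 CPM makes a ratio smaller. Cd55 and Marco, near 0 in C1q-high cells (0.11 and 0.09), had ratios of 1.52 and 1.21 in C1q-low cells. Vcam1 had -0.85 in C1q-high and 0.53 in C1q-low cells, at 9.48 CPM in THP and 6.28 CPM in vehicle C1q-low cells. Whether the classes differed in their response was not tested.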

How the data were processed

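Single-cell RNA was measured in 2 mouse macrophage libraries. The deposited values are raw UMI counts per gene and barcode, written by Cell Ranger 3.1.0 per the file headers. Cell Ranger, STAR, bcl2fastq and mm10 are named in the submitters' processing notes. The sources used here do not give the annotation release or whether counting used strand. Of 31053 genes, 30934 matched GENCODE M21 (GRCm38) for coordinates and transcript length. Promoters came from RefSeq (GRCm38.p6).

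Cells with at least 500 genes, 1000 UMIs and at most 10% mitochondrial UMIs were kept (12123 of 13193 THP and 10978 of 11584 vehicle barcodes, with 227129670 and 209092047 UMIs in all). No doublet caller was run. Counts were summed over the class and scaled to CPM, with exact Poisson 95% intervals; shares have exact Clopper-Pearson intervals. A gene was called at 10 CPM or more in 1 library or both and a 2-fold ratio of CPM + 1, the genes of the rule left out. TMM and median of ratios came from edgeR 4.0.16 in R 4.3.3; the rest ran in Python 3.11.15 with numpy 2.4.6 and scipy 1.17.1. Calls were checked on simulated counts. Named genes (161) were those of the rule and label, the 15 highest and lowest called ratios, up to 5 per list, 10 each way against C1q-low cells and the 10 that follow C1q; others named here were chosen after their values were seen. The members, the 24 gene lists and the 12 marker lists were chosen with earlier results of these data known. Some genes of the lists are not reported here.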

Additional observations from a re-analysis of the deposited data

Results flagged for a closer look

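Some barcodes that the cell filter left out also met the C1q rule. In the THP library 142 of 1070 left-out barcodes met it (13.3%, exact binomial 95% interval 11.3 to 15.5), and in the vehicle library 50 of 606 (8.25%, 6.19 to 10.7). Of these, 83 THP and 39 vehicle barcodes were over the mitochondrial limit, and their median depths were 935.5 and 1276 UMIs. With all deposited barcodes counted, the C1q-high shares were 13.7% and 8.49%. The THP share was singled out because it lies in barcodes that no comparison of genes used and is above the vehicle share.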

How the results depend on the processing

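No paired analysis was possible because each group had 1 library. Under TMM and median of ratios (RLE) scaling, 127 and 128 genes were higher and 85 and 85 lower in THP C1q-high cells, in place of 83 and 248; both scalings raise every ratio by construction. A 1.5-fold limit gave 185 higher and 1341 lower genes, and the length correction 132 lower genes. The share of C1q-high cells was 21% in THP and 13.1% in vehicle with a C1q minimum of 5, 6.88% and 4.52% with a minimum of 20, 17.6% and 12.4% with the excluded cells kept, and 18.0% and 12.3% with cells thinned before the rule. The THP share was above the vehicle share in each. The remaining settings, among them one without the deepest 5% of cells and one without cells rich in other types' genes, gave 79 to 111 higher and 223 to 369 lower genes. Without other types' cells Sparc gave no value, being itself a marker used to leave cells out. The cause of the length trend was not tested, and 1 library per group leaves every difference without a replicate check.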
